A study of Mus musculus with 4 samples.

Results

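Solute carriers are membrane proteins that move amino acids, sugars, ions, metals, nucleotides and organic acids across the plasma membrane and the membranes of organelles. Genes of this superfamily were followed in a table of Nrf2 binding in mouse esophagus, obtained by chromatin immunoprecipitation and sequencing (ChIP-seq). Members were all genes whose symbol begins with Slc and a digit, or with Slco, except Slc7a11, Slc48a1, Slc2a1 and Slc22a12. This gave 38 of the 1940 genes listed by the submitters, on 17 chromosomes, and no Slco gene was among them. The rule itself reads symbols and no measured value, but it was set with earlier results of these data known. The groups were esophagus of wild-type mice, of mice labelled Nrf2KO and of mice labelled Keap1KO, all of strain C57BL/6. Each genotype had 1 ChIP library made with the same Nrf2 antibody, and a pooled input library was not analysed here. The sources used here do not give the alleles, the age and sex of the animals, the number of animals per library or whether either knockout was restricted to some cells.

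Nrf2 is a transcription factor that pairs with a small Maf protein on a DNA sequence known as the antioxidant response element. Keap1 binds Nrf2 in the cytoplasm and hands it to a ubiquitin ligase for degradation, so that loss of Keap1 stabilises Nrf2, and loss of Nrf2 leaves the antibody without its target. Carriers matter to the pathway because glutathione synthesis uses glutamate, glycine and imported cystine. Heme, iron and conjugated compounds also have to be moved between compartments. The best known carrier target, the cystine importer Slc7a11, is among the genes left out of the members.

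Heights are the deposited average peak height of a gene in a library, for which neither a unit nor a sequencing depth is stated. A gene with several called intervals carries the mean over its active regions, which are intervals merged between libraries. Neighbouring genes can list the same interval, so the 1940 genes fall into 1469 distinct interval sets, each counted once as background. Ratios were taken after adding 1 to each height, which understates differences at low heights, and every fold below is on that scale. Where heights follow each other without a label, their order is wild-type, Nrf2KO, Keap1KO. With 1 library per genotype no difference could be tested or given a replicate error, and 2-fold is a rule of size only. ChIP signal comes from the whole tissue, and the share of cells of each type in a library cannot be told apart from binding per cell. Of 10 squamous epithelium markers, 4 were listed (Krt14, Trp63, Pax9 and Notch1), and of 6 markers of muscle, vessel, connective tissue and immune cells 0 were listed. A listing is not a level of expression and does not check the tissue.

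Sequences were looked up where a member's interval fell inside a RefSeq promoter window (250 bases before to 50 after a gene start, build GRCm38.p6). Only there could the DNA at a listed interval be read here. Of the 44 intervals of members, 3 fell inside such a window. The first window belongs to a second start of Slc20a1, a sodium-phosphate cotransporter that also serves as a retrovirus receptor, and lies on the plus strand at chr2:129206846-129207145. The second is the start of Slc25a38, a mitochondrial glycine carrier needed for heme synthesis, on the plus strand at chr9:120110132-120110431. The third is the start of Urm1, on the plus strand at chr2:29827139-29827438, whose interval is also listed under the fatty acid transporter gene Slc27a4. Capitals mark matches to the core of the antioxidant response element, TGACNNNGC, searched on both strands.
Slc20a1: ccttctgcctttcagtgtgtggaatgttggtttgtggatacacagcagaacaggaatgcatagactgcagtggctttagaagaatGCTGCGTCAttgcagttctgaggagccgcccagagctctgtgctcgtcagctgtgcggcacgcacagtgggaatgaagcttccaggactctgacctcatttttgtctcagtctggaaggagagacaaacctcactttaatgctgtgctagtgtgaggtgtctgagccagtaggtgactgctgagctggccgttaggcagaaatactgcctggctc
Slc25a38: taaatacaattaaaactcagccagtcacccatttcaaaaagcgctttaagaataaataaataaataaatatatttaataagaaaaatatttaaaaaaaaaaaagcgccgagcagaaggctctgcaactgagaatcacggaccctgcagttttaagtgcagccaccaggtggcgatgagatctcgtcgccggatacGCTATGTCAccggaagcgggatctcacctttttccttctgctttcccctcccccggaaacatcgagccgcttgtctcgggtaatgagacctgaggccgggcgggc
Urm1: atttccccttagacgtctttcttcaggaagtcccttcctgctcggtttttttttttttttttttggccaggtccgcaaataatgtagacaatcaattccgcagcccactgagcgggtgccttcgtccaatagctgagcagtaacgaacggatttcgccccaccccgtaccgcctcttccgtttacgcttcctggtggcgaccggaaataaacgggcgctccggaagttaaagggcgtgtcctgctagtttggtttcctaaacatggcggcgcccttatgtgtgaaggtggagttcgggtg
Read in the direction of the motif, the Slc20a1 match is TGACGCAGC, 51 bases from the listed interval position, and the Slc25a38 match is TGACATAGC, 65 bases from it. The Urm1 window held no match. The core occurred in 12.4% of all 32851 promoter windows, and in 56 of the 148 windows (37.8%, exact 95% interval 30.0 to 46.2) that contained an interval of another gene. Matches in members thus stood at 2 of 3, a number too small to place against that share. The longer forms TGACTCAGC and TGAGTCAGC occurred in 0 of the 3 and in 19 of the 148, and the AP-1 motif TGANTCA, which overlaps the longer forms, in 0 of the 3 and in 36 of the 148. These matches are descriptions of letters in a window and not of binding sites.

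At the Slc20a1 window the heights were 8 in wild-type and 5 in Nrf2KO, against 16 in Keap1KO. At Slc25a38 they were 6, 11 and 14, and at the interval shared by Slc27a4 and Urm1 they were 7, 11 and 11. The window with a match at Slc20a1 was therefore the only one of the 3 where wild-type lay above Nrf2KO. Promoters of 29 of the 38 members matched the RefSeq table by gene identifier, in 35 windows, and 7 windows of 6 genes held the core (20.0%, against 12.4% of all windows). The 6 genes were Slc20a1, Slc25a38, Slc39a13, Slc25a33, Slc22a20 and Slc6a9. At Slc25a33 and Slc22a20 the called interval lay 6501 bp before and 19231 bp after the start, well away from the matching window. At Slc6a9 the matches were in windows farther downstream (chr4:117849100-117849399 and chr4:117855297-117855596). The Slc6a9 window nearest its called intervals (chr4:117835008-117835307) held no match. Among the members not matched were Slc25a2, Slc14a2, Slc35a4, Slc16a5, Slc24a6, Slc38a3, Slc6a6 and Slc20a2.

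All 38 members carried a Keap1KO interval, 1 also carried a wild-type interval and 0 an Nrf2KO interval. Over all interval sets the calls covered 99.2% for Keap1KO, 3.81% for wild-type and 0% for Nrf2KO, so the members' calls were near the background. Members had a median height of 6 in wild-type (2 to 13) and of 5 in Nrf2KO (1 to 14), and in Keap1KO the median was 19 (11 to 44). Over all sets the medians were 5, 4.5 and 18. The wild-type and Nrf2KO ranges of the members overlapped over nearly their whole length, and only the upper part of the Keap1KO range, above 14, was free of both.

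**Figure D1:**
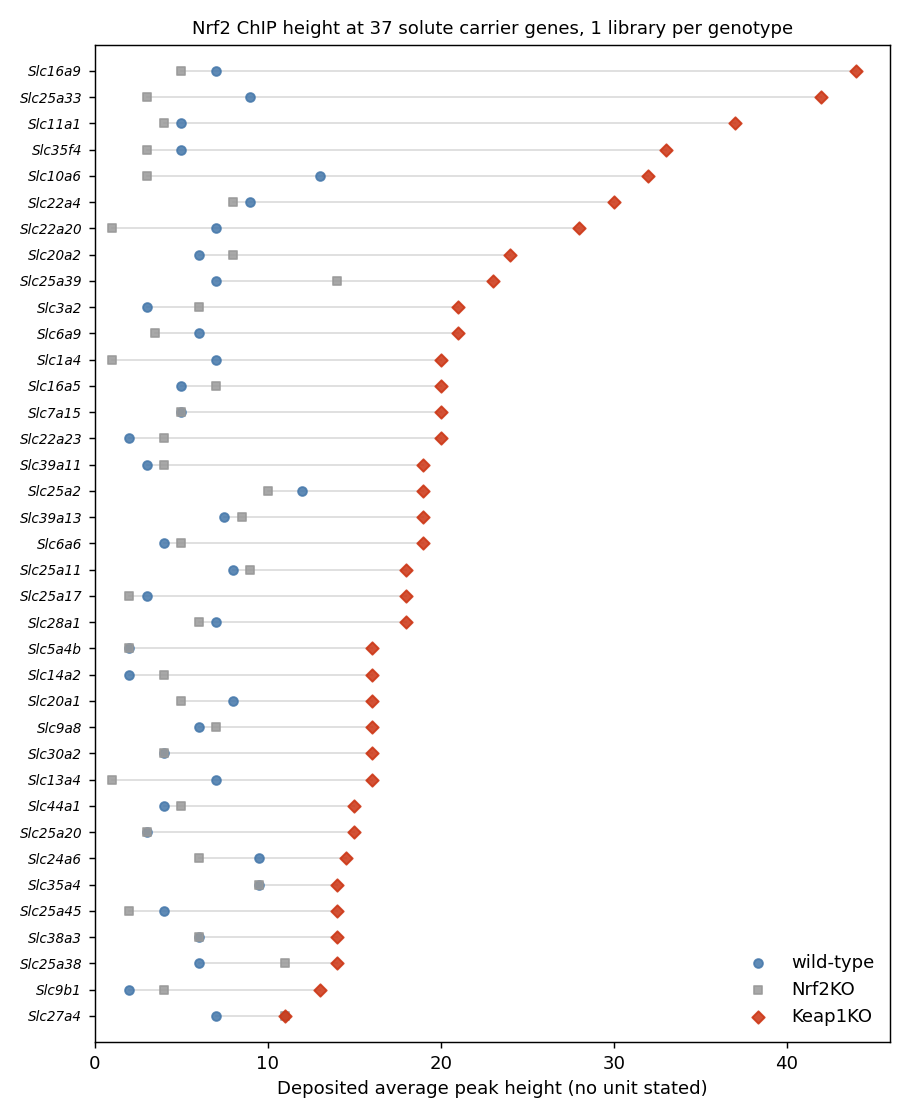
Deposited average peak height (x axis, no unit stated) of 37 of the 38 solute carrier genes (y axis, ordered by Keap1KO height) in the wild-type, Nrf2KO and Keap1KO libraries, 1 point per library and no error bars because there are no replicates. Keap1KO is the rightmost point at every gene drawn except Slc27a4, where it coincides with Nrf2KO at 11, while wild-type and Nrf2KO change places from gene to gene.

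Keap1KO exceeded wild-type at all 38 members (98.8% of all sets), by at least 2-fold at 33 of them (86.8%), where 88% of all sets met that rule, and it was 2-fold lower at 0 (0.272% of all sets). The median log2 ratio was 1.67 among members and 1.74 over all sets. Keap1KO exceeded Nrf2KO at 37 members (99% of all sets) and equalled it at 1. The margin was 2-fold or more at 32 members (84.2%), with 85.4% of all sets meeting the rule, and 0 members were 2-fold lower (0.136% of all sets). The median log2 ratios here were 1.77 and 1.90. The members as a group therefore lay near the background in both comparisons. The intervals were listed because they were called, nearly always in Keap1KO, which selects those heights upwards.

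The tallest members were spread over carriers of unlike substrates. Slc16a9, a carrier of the monocarboxylate family, had the highest deposited mean, with 7 in wild-type and 5 in Nrf2KO, against 44 in Keap1KO, at an interval 1921 bp past the end of the gene on chromosome 10 (position 70287872, build mm10). Slc25a33, which carries pyrimidine nucleotides into mitochondria, had 9, 3 and 42 at an interval on chromosome 4 (position 149780768), 6501 bp ahead of its start. Both intervals were listed under no other gene, though the Slc25a33 interval lies 120 bp from the RefSeq promoter window of Gm13073. Over all sets, 66 of 1469 reached 44, so that these heights were in the upper part of the table but far below its maximum of 194. Slc11a1 was the next, and at the height of 33 or more there were 4 of the 38 members and 10.6% of all sets.

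Slc11a1 encodes Nramp1, a divalent metal transporter of phagocyte endosomes, and its deposited mean of 5 in wild-type and 4 in Nrf2KO, against 37 in Keap1KO joins unlike regions. Neighbouring genes list each of its 2 regions alone, which gives the single heights. The region 1437 bp into the gene (chromosome 1, position 74376640), also listed under Gm216, had 5 in wild-type and 4 in Nrf2KO, against 61 in Keap1KO. The region 15869 bp from the start, beyond the end of Slc11a1, had 5, 4 and 13 and lies 537 bp upstream of Ctdsp1. Taken alone, the region inside the gene was 10.3-fold higher in Keap1KO than in wild-type and 12.4-fold higher than in Nrf2KO, and only 26 of the 1469 sets had a mean height of 61 or more. The gene mean thus understates the tallest carrier region of those that could be separated.

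The other members with 2 regions showed smaller contrasts. Slc39a13, a zinc transporter of the secretory pathway, had 8, 5 and 21 in wild-type, Nrf2KO and Keap1KO at a region 15949 bp from its start that lies 256 bp into Psmc3. At 467 bp upstream of its own start it had 7, 12 and 17. The Psmc3 region was the one with the lower Nrf2KO height, although both lay near a gene start. Slc35a4 of the nucleotide sugar transporter family had 11, 9 and 14 at a region 8975 bp upstream and 8, 10 and 14 at one 145 bp into the gene, so that Keap1KO was under 2-fold above either library at both. For Slc6a9, the glycine transporter GlyT1, the deposited maximum and mean give Keap1KO heights of 29 and 13 for its regions, without telling which is 2810 bp upstream of the start and which is 182 bp inside. Its means were 6 in wild-type and 3.5 in Nrf2KO, against 21 in Keap1KO. Slc24a6, the mitochondrial sodium-calcium exchanger now named Slc8b1 in RefSeq, had 16 and 13 in Keap1KO at regions 5608 and 6472 bp into the gene, with means of 9.5, 6 and 14.5.

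Carriers of amino acids numbered 6, with Keap1KO heights of 14 to 21, and all 6 were at least 2-fold higher in Keap1KO than in wild-type (88% of all sets) and than in Nrf2KO (85.4% of all sets). With a pseudocount of 5 in place of 1, Slc38a3 fell under 2-fold in both comparisons. At that setting 72.5% of all sets reached 2-fold over wild-type and 73.0% over Nrf2KO. Slc3a2 encodes the heavy chain CD98, which brings light chains such as the cystine importer to the cell surface. It had 3 in wild-type and 6 in Nrf2KO, against 21 in Keap1KO, 10185 bp into the gene by its deposited start. A RefSeq promoter window of Slc3a2 (chr19:8713848-8714147, minus strand) lies within 1 kb of that interval (position 8713184). Slc1a4, a neutral amino acid exchanger, had 7, 1 and 20 at an interval 7401 bp into the gene. The pair had almost the same Keap1KO height and opposite orders of wild-type and Nrf2KO. Slc6a6, the taurine transporter, had 4, 5 and 19 at 5213 bp into the gene. Slc7a15, an amino acid transporter of the cystine importer's family, had 5, 5 and 20 at 6883 bp past the end of the gene, and the glutamine transporter gene Slc38a3 had 6, 6 and 14. At these last 3 genes wild-type and Nrf2KO were equal or 1 apart.

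Carriers of organic ions had the highest class median in Keap1KO among classes of at least 3 members, 29 over 4 genes, with medians of 8 in wild-type and 3.5 in Nrf2KO. Slc10a6, a transporter of sulfated steroids, was the only member called in wild-type, with 13 in wild-type and 3 in Nrf2KO, against 32 in Keap1KO. Its wild-type and Keap1KO intervals (chromosome 5, positions 103596704 and 103596640) lie 64 bases apart beyond the end of the gene and inside Ptpn13, under which they are also listed. Slc22a20, an organic anion transporter, had 7, 1 and 28, which gave the largest Keap1KO over Nrf2KO fold of the members, 14.5-fold. That fold rests on an Nrf2KO height of 1. With a pseudocount of 5 its log2 ratio was 2.46, below the 2.55 of Slc25a33. The Slc22a20 interval is also listed under Pola2, whose start is 2706 bp away. Slc22a4, which carries the antioxidant ergothioneine, had 9, 8 and 30 at 550 bp upstream of its start (chromosome 11, position 54028640), and Slc22a23 had 2, 4 and 20 at 12286 bp into the gene. Slc10a6, Slc22a4 and Slc22a20 thus stood at 28 to 32 in Keap1KO, while Slc22a23 with 20 lay near the member median of 19. Their Nrf2KO heights were lowest at Slc22a20 and highest at Slc22a4.

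**Figure D2:**
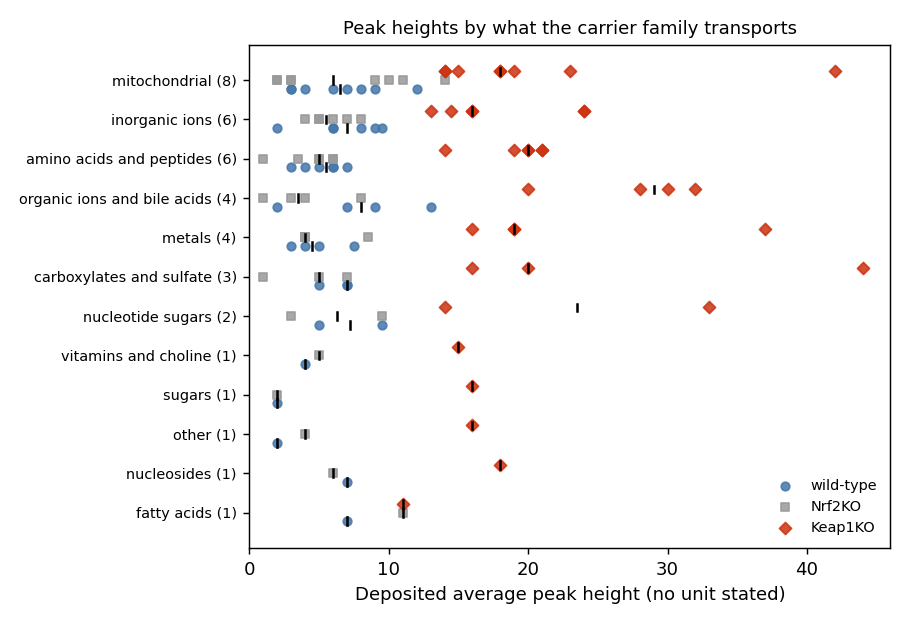
Deposited average peak height (x axis, no unit stated) of members grouped by what their family carries (y axis, number of genes in brackets), with 1 point per gene and library and a black tick at the median of each class. The 4 organic ion carriers lie between 20 and 32 in Keap1KO, while the 8 genes of the mitochondrial family span 2 to 14 in Nrf2KO, which includes the highest Nrf2KO height of all members.

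The family Slc25, most of whose proteins sit in the inner mitochondrial membrane, gave the most members, 8, with Keap1KO heights of 14 to 42. The Keap1KO height reached 2-fold over wild-type at 7 of the 8 genes (88% of all sets) and 2-fold over Nrf2KO at 4 (85.4% of all sets), and with a pseudocount of 5 Slc25a11 and Slc25a38 fell under 2-fold over wild-type. Slc25a39, which imports glutathione into mitochondria, had 7 in wild-type and 14 in Nrf2KO, against 23 in Keap1KO at 963 bp upstream of its start (chromosome 11, position 102408480), an interval it shares with Rundc3a. Its Nrf2KO height was the highest of the members, and only 12 of the 1469 sets reached it. Slc25a2, an ornithine carrier, had 12, 10 and 19, and its interval lies 60 bp into Taf7. Slc25a11, the oxoglutarate carrier, had 8, 9 and 18 at an interval also listed under Pfn1 and Rnf167. In these 3 genes and in Slc25a38, Keap1KO was less than 2-fold above Nrf2KO. Slc25a17, a peroxisomal carrier of cofactors, had 3, 2 and 18, Slc25a20, the carnitine and acylcarnitine carrier, had 3, 3 and 15, and Slc25a45 had 4, 2 and 14. With Slc25a33 these were the members of the family with low Nrf2KO heights, and their intervals all lay more than 1 kb from any listed start. RefSeq places an unlisted start, that of Gm13073, within 1 kb of the Slc25a33 interval.

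Carriers of inorganic ions numbered 6, with Keap1KO heights of 13 to 24. Slc9a8, a sodium-proton exchanger of the Golgi, had 6 in wild-type and 7 in Nrf2KO, against 16 in Keap1KO at 313 bp upstream of its start, and Slc9b1 had 2, 4 and 13. Both phosphate importers of the family Slc20 were listed, and Slc20a2 had 6, 8 and 24 at 14772 bp into the gene, against the values of Slc20a1 given above. The Keap1KO height reached 2-fold over Nrf2KO at all 6 (85.4% of all sets) and 2-fold over wild-type at 4 (88% of all sets), the exceptions being Slc20a1 and Slc24a6. With a pseudocount of 5, Slc9a8 fell under 2-fold in both comparisons and Slc24a6 over Nrf2KO. At Slc20a1 and Slc24a6 wild-type was among the higher values of the class.

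Among metal carriers, Slc39a11, a zinc transporter, had 3 in wild-type and 4 in Nrf2KO, against 19 in Keap1KO at the interval farthest into its gene of all members, 212983 bp from the start. Slc30a2, which loads zinc into vesicles, had 4, 4 and 16. All 4 metal carriers were at least 2-fold higher in Keap1KO than in wild-type (88% of all sets) and in Nrf2KO (85.4% of all sets), and with a pseudocount of 5 Slc39a13 fell under 2-fold in both comparisons. Of the remaining members, Slc35f4, a gene of the nucleotide sugar transporter family, had 5, 3 and 33 at 37229 bp into the gene. Slc13a4, a sulfate transporter, had 7, 1 and 16, and Slc16a5 had 5, 7 and 20. The others were a sodium-glucose carrier family gene, Slc5a4b (2, 2 and 16 in wild-type, Nrf2KO and Keap1KO), the urea transporter gene Slc14a2 (2, 4 and 16), the nucleoside transporter gene Slc28a1 (7, 6 and 18) and the choline transporter gene Slc44a1 (4, 5 and 15). Keap1KO was at least 2-fold above both other libraries at every gene named in this paragraph, and of the remaining members in it Slc13a4 and Slc28a1 fell under 2-fold over wild-type with a pseudocount of 5.

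Wild-type and Nrf2KO were close at most members. Wild-type was higher at 17, equal at 6 and lower at 15, with a median log2 ratio of 0.00 against 0.19 over all sets, where wild-type was higher at 53.8%. It was at least 2-fold higher at 5 members (13.2%, against 18.2% of all sets) and at least 2-fold lower at 0 (7.96% of all sets). The 5 were Slc1a4, Slc13a4 and Slc22a20 at 4-fold, Slc10a6 at 3.5-fold and Slc25a33 at 2.5-fold, which fell under 2-fold with a pseudocount of 5. Nrf2KO had only 1 at the first 3, so that a change of 1 in that height would move their folds strongly. Slc10a6 and Slc25a33, with 3 in Nrf2KO, had wild-type heights of 13 and 9. At the other end, wild-type was lowest relative to Nrf2KO at Slc25a39 (0.533-fold), Slc3a2 (0.571-fold) and Slc25a38 (0.583-fold), followed by Slc14a2, Slc22a23 and Slc9b1 at 0.6-fold.

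**Figure D3:**
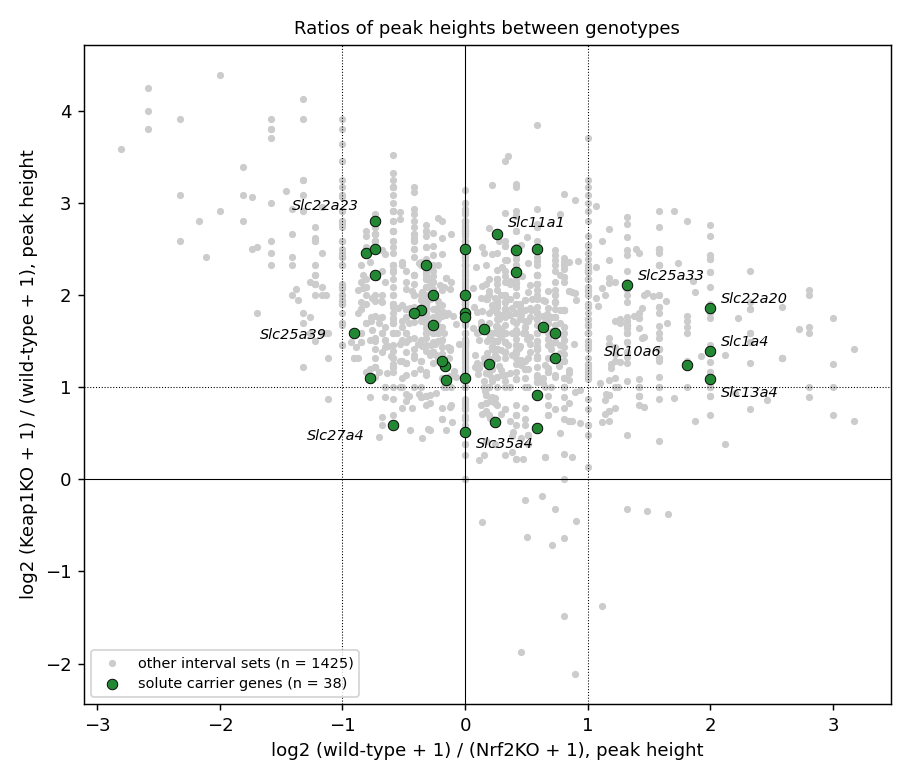
Log2 ratio of wild-type to Nrf2KO (x axis) against log2 ratio of Keap1KO to wild-type (y axis), both of peak height plus 1, for 38 solute carrier genes (green) and 1425 interval sets that hold no carrier interval (grey), with dotted lines at 2-fold. The 5 carriers to the right of the 2-fold line are named, all members lie above 0 on the y axis, and wild-type enters both axes, which ties them to each other.

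The order Keap1KO above wild-type above Nrf2KO held at 17 members, and at 52.7% of all sets. Of the 12 members with 21 or more in Keap1KO, wild-type exceeded Nrf2KO at 9 and was lower at 3 (Slc20a2, Slc25a39 and Slc3a2). Of the other 26 it was higher at 8, equal at 6 and lower at 12. Over other interval sets the same order of wild-type and Nrf2KO held at 63.0% of the 506 with 21 or more in Keap1KO and at 48.9% of the 919 below. Median heights of the 12 members were 7 in wild-type and 4.5 in Nrf2KO, and those of the 26 were 5.5 and 5. For the other sets they were 6.5 and 5 in the 506, and 4.5 and 4 in the 919. This split was made on these heights and carries no test.

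Nrf2KO heights were larger at members whose interval lay close to a gene start. By the interval closest to the member's own start, 7 of 38 lay within 1 kb of it (18.4%, exact 95% interval 7.74 to 34.3), 15 farther inside the gene, 9 upstream and 7 downstream. Of the other gene rows, 27.1% lay within 1 kb. The 7 were Slc22a4, Slc25a38, Slc25a39, Slc35a4, Slc39a13, Slc6a9 and Slc9a8. Upstream intervals reached 9302 bp from the start at Slc5a4b, and downstream ones 9838 bp past the end at Slc27a4. The median Nrf2KO height was 8.5 at the 7 genes near their start, 5 at the 15 inside genes and 4 in each of the upstream and downstream groups.

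An interval can lie far from the carrier and at the start of a neighbour. Of the 38 members, 17 shared an interval with another listed gene, and for 13 a neighbour's start was nearer than the carrier's own. Counting the nearest start of any listed gene, and no start given by RefSeq alone, 10 members lay within 1 kb of one. The additional 3 were Slc11a1, Slc25a2 and Slc27a4. The median heights of those 10 were 7 in wild-type and 9 in Nrf2KO, against 19 in Keap1KO. For the 28 farther away they were 5, 4 and 18.5. The corresponding medians over other sets were 6.5, 7 and 17.5 near a start and 4.5, 4 and 18 away from one, where Nrf2KO was likewise higher near a start.

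In 6 of the 38 members Keap1KO was under 2-fold above Nrf2KO. These were Slc25a2, Slc25a11, Slc25a38, Slc25a39, Slc27a4 and Slc35a4. Of these, 5 lay within 1 kb of a listed start (83.3%, exact 95% interval 35.9 to 99.6), and Slc25a11 lay 1254 bp from that of Pfn1. Of the 32 members at or above 2-fold, 5 lay within 1 kb (15.6%). Over other sets the shares were 72.5% of 207 and 26.1% of 1218. Starts given by RefSeq alone were not counted in any of these shares. Among the 32, Slc20a1, Slc3a2 and Slc25a33 had an interval within 1 kb of such a start, with Nrf2KO heights of 5, 6 and 3. The shares were not recounted with such starts, so the contrast is given for listed starts only. Slc27a4, with a Keap1KO over Nrf2KO fold of 1, and Slc25a38, with 1.25, had the lowest ratios of the members. Both stood with 11 in Nrf2KO.

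**Figure D4:**
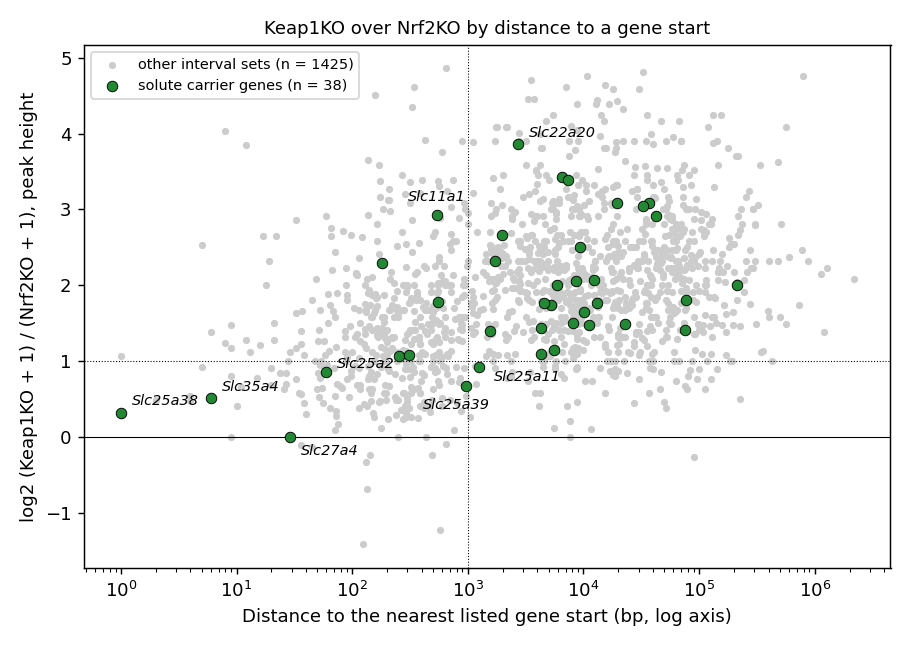
Log2 ratio of Keap1KO to Nrf2KO peak height plus 1 (y axis) against the distance from a gene's intervals to the nearest start of any listed gene (x axis, bp, log axis), for 38 solute carrier genes (green) and 1425 other interval sets (grey), with dotted lines at 1 kb and at 2-fold. The 6 carriers under the 2-fold line are named, and 5 of them lie left of 1 kb. A gene with several regions is drawn at its closest one with its mean ratio, as for Slc11a1.

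Listing was spread thinly over the superfamily. Of 385 protein-coding carrier genes of RefSeq outside the 4 left out, 38 were listed (9.87%, exact 95% interval 7.08 to 13.3), against 7.61% of the other 21511 protein-coding genes. Members came from 22 of 51 families, with 14 families giving 1 gene each. The Slc25 family had 8 of 47 genes listed (17.0%, 7.65 to 30.8), Slc22 3 of 24 and Slc20 2 of 2. Families with 0 listed included Slco with 14 genes, Slc4 and Slc26 with 11 each, Slc12 and Slc17 with 9 each, and, after Slc2a1 was left out, Slc2 with 11. For Slco, 0 of 14 is a count from a short list of called intervals and not a measurement of absence.

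Other membrane transporters gave a comparison outside the superfamily. ABC transporters, which pump substrates with ATP, had 9 of 50 genes listed, with median heights of 4 in wild-type and 3 in Nrf2KO, against 20 in Keap1KO. All 9 were at least 2-fold higher in Keap1KO than in wild-type (88% of all sets) and in Nrf2KO (85.4% of all sets). For Keap1KO against Nrf2KO their median log2 ratio was 2.74, against 1.77 for the carriers and 1.90 for all sets. The carrier value is without the 4 genes left out by rule, while no ABC gene was left out. Ion-pumping ATPases had 3 of 45, with medians of 5, 3 and 12. The difference between these lists was not tested. The 4 carriers left out by rule had Keap1KO heights of 71 (Slc22a12), 54 (Slc2a1), 46 (Slc48a1) and 29.67 (Slc7a11, a mean over regions), of which the first 3 exceeded every member's deposited mean. Only the single Slc11a1 region with 61 reached into that range.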

How the data were processed

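Nrf2 ChIP-seq libraries of wild-type, Nrf2KO and Keap1KO esophagus were represented by 1 table with a row per gene, in which the authors deposited a peak height signal and a flag of called intervals for each library. The submitters' processing notes name BWA, MACS2 2.1.0 and build mm10. Parameters and any scaling of one library to another are not stated in those notes. The signal was a whole number in all 1681 genes with 1 active region. Total counts and depth per library are unknown, so no counting error could be given for the heights.

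The position of an interval was derived from the gene's ends, strand and listed distance, and all 1727 intervals had a single position. Genes were matched to RefSeq (GRCm38.p6) by identifier, 38 of 38 members, of which 33 had both ends within 1 kb of the RefSeq coordinates. Ratios used a pseudocount of 1. Background counts used each interval set once. Shares carry exact (Clopper-Pearson) 95% intervals, which describe counting only. No genome sequence was used, so motifs were searched in promoter windows in place of windows around every interval. Summaries were tested on simulated data. Python 3.11.15, pandas 2.3.3 and scipy 1.17.1 were used.

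Members, carrier classes, lists and the rule for named genes were chosen with earlier results of these data known. The rule named members called in wild-type, the 12 highest in Keap1KO, the 6 highest and 6 lowest ratios of Keap1KO over wild-type and of wild-type over Nrf2KO, the 5 highest in Nrf2KO, and members with several regions or family members. The other members were named to describe their class, except 1 that is counted but not reported here. Pseudocounts, filters, distances, calls and scaling were varied.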

Additional observations from a re-analysis of the deposited data

How the results depend on the processing

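No paired analysis was possible because there is 1 library for each genotype. Leaving out a library was not possible for the same reason, and a motif window of 100 bases around each interval was not run because no genome sequence was used. Separating the tallest region of a gene and promoter windows within 500 bases were chosen after seeing the data. A count was taken as moved beyond 1.5 times, a median or share outside its 95% interval and a single gene when it crossed 2-fold, so smaller shifts are not counted. On that measure 18 of 114 main values and 32 of 317 other values moved, and 0 changed sign. For values that moved the cause was not tested, apart from the smaller number of members under a filter and the shrinkage that a larger pseudocount brings by its construction. With a pseudocount of 5 Keap1KO had median log2 ratios of 1.23 to wild-type and 1.25 to Nrf2KO. It was at least 2-fold higher at 26 members against wild-type (33 with a pseudocount of 1) and at 28 against Nrf2KO (32). At a pseudocount of 5 the same rules were met by 72.5% and 73.0% of all sets. Wild-type was then at least 2-fold above Nrf2KO at 4 members and at 3.95% of all sets. The 7 that fell under 2-fold over wild-type were Slc13a4, Slc25a11, Slc25a38, Slc28a1, Slc38a3, Slc39a13 and Slc9a8, the 4 that did so over Nrf2KO were Slc24a6, Slc38a3, Slc39a13 and Slc9a8, and Slc25a33 did so for wild-type over Nrf2KO. Only 24 members had at least the median mean height. Among these 24, Keap1KO was higher than wild-type at 24 and at least 2-fold higher at 19. It was higher than Nrf2KO at 23 and at least 2-fold higher at 18, and wild-type was at least 2-fold above Nrf2KO at 3. An interval within 10 kb of the gene start was held by 22 members. Among these 22, the first 4 counts were 22, 18, 22 and 17. Wild-type was above Nrf2KO at 11 of them and at least 2-fold above at 2. The matching shares over all sets are not given here. With wild-type scaled to Nrf2KO by 0.9, 1 member was at least 2-fold lower in wild-type, Slc25a39. With calls limited to the median called height of 18, 23 members were called in Keap1KO. The median Keap1KO height over all sets was also 18. With heights of at least 12 counted as called, 2 of 38 members were called in wild-type and 1 in Nrf2KO. Over all 1469 sets the counts were 77 in wild-type and 48 in Nrf2KO. The longer motif was found in 0 of the 3 promoter windows.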

Other observations

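Across the 38 members, heights in different libraries were only loosely related. The Spearman rho was 0.22 between wild-type and Keap1KO, 0.36 between wild-type and Nrf2KO and -0.16 between Nrf2KO and Keap1KO, against 0.34, 0.42 and 0.13 over 1425 other interval sets. The points share their libraries and unknown depths, and the heights are small, so these are descriptions only. The 21 members whose intervals were listed under no other gene had a median log2 ratio of 2.00 when Keap1KO was set against wild-type and of 1.81 when it was set against Nrf2KO, and 0.00 when wild-type was set against Nrf2KO. Keap1KO reached 2-fold over Nrf2KO at 20 of the 21, the exception being Slc25a38. That rule was met by 85.4% of all sets and by 88.1% of the 992 other sets listed under 1 gene.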
